A study of Mus musculus with 19 samples.

Results

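The amino acid and monocarboxylate transporters are the genes of the liver RNA-seq table whose symbols start with Slc1a, Slc3a, Slc6a, Slc7a, Slc16a, Slc36a, Slc38a or Slc43a, with Slc7a11 left out. The rule found 77 of the 24054 symbols in the table: 74 transporter or transporter subunit genes and 3 genes named for lying opposite a transporter (Slc36a1os, Slc6a19os and Slc7a6os). The study asked what loss of RALY, an RNA-binding protein of the hnRNP family, does to gene expression in hepatocytes. RNA was taken from whole livers of C57BL/6 Raly flox/flox littermates on a chow diet that had received AAV8.TBG.Cre (L-RalyKO, labelled RALY-KO, n = 3 mice) or AAV8.TBG.GFP (control, labelled wild type, n = 3 mice). All 6 mice therefore carried the floxed alleles and a viral vector, and the TBG promoter restricts Cre to hepatocytes, so that other liver cells keep Raly. The study used male mice unless stated otherwise, and the age of these mice is not given in the sources used here.

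Solute carriers move amino acids and small acids across membranes, and the liver depends on them to clear the portal blood. System N and system A carriers of the Slc38a family bring glutamine, histidine and alanine into hepatocytes for the urea cycle and gluconeogenesis. Cationic carriers of the Slc7a family take up arginine and ornithine, and some Slc7a members work only as a light chain joined to an Slc3a heavy chain. Slc6a and Slc1a carriers use the sodium gradient to concentrate glycine, betaine, taurine, creatine or glutamate, and Slc43a carriers pass large neutral amino acids by facilitated diffusion. The Slc16a family holds the proton-linked lactate, pyruvate and ketone body carriers together with relatives that carry aromatic amino acids or creatine.

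The 3 control libraries held between 28302983 and 37132274 reads and the 3 L-RalyKO libraries between 34660211 and 38052705, so that 3 reads correspond to a normalised count of 0.0789 to 0.105. Normalised counts are reads scaled to a common library size and are not divided by gene length. The targeted gene followed the labels: Raly had normalised counts of 6.34, 6.61 and 7.39 in the L-RalyKO livers and 50.1, 48.6 and 46.8 in the controls, a log2 fold change of -2.67 (limma on log2 of the normalised count plus 1, adjusted p = 6.92e-07). In whole liver RNA, fewer cells of a type and less RNA per cell cannot be told apart. Summed hepatocyte markers (Alb, Ttr, Apoa1, Fah and Hnf4a) were 83438 to 84470 in L-RalyKO and 75162 to 84175 in control livers, and of these Hnf4a was called, with 900, 809 and 829 against 520, 542 and 680 (limma adjusted p = 0.0155). All 5 had positive log2 fold changes (median 0.091), 2 of them at an unadjusted p under 0.05 (limma), which 22.7% of all tested genes reached. Summed markers of Kupffer, sinusoidal endothelial and stellate cells, cholangiocytes, lymphocytes and red blood cells overlapped between groups, and kidney markers were at or under 0.0290 in every liver. Within the cholangiocyte sum, led by Spp1, Sox9 was higher without overlap, with 5.88, 4.70 and 4.29 in L-RalyKO and 4.05, 2.81 and 2.46 in control livers (limma adjusted p = 0.0774). Krt19, too low to be tested, was also higher without overlap, while Spp1, Krt7 and Epcam overlapped. Adipocyte markers did not overlap, with sums of 4.97 to 7.40 in L-RalyKO and 10.3 to 52.0 in control livers over 6 genes. Almost all of this came from Cidec and Cfd, while Adipoq, Plin1, Lep and Retn stayed at or under 0.209. Cfd was called lower (log2 fold change -2.10, limma adjusted p = 0.0318). With means of 0.479 in L-RalyKO and 6.27 in control livers, Cfd reached the mean of 1 needed for testing only through the controls, where it was high, and nothing is read from its call. The highest sum was that of control mouse 1, and the other 2 controls had 10.3 and 17.6. By read counts, control mouse 1 also stood apart from the other controls, with a chi-square per degree of freedom of 71.1 and 84.3 over genes. Replicate pairs without it had 12.6 to 27.4. On the log2 scale of the test, the second principal component (16.1% of the variance) instead put control mice 2 and 3 furthest apart, at -10.5 and 14.5. Control mouse 1 lay between them at -2.89. On the first component (50.7%) the controls were at 17.4, 11.5 and 10.8, with control mouse 1 furthest from the L-RalyKO livers. The part of these differences in the results below was not tested beyond leaving out each mouse in turn.

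Of the 77 genes, 41 reached a mean normalised count of 1 over the 6 livers and were tested, and 1 of these (Slc7a4) passed through the L-RalyKO mean alone. The others comprised 23 with some reads and 13 with none in any liver. Levels can be compared between genes only per kilobase of exon, and on that scale the repertoire was steep. The length used was that of all annotated exons of a gene merged, so the order and shares depend on the annotation. Slc38a3, the system N glutamine and histidine carrier SNAT3, led with a mean of 518 per kilobase, followed by Slc38a4, the hepatic neutral and cationic amino acid carrier SNAT4, at 333. These 2 genes made up 62.4% to 65.4% of the summed per-kilobase level of all members in each liver. Slc7a2, the cationic carrier CAT2, came next at 97.7 per kilobase. It was followed by Slc6a13, a GABA and taurine carrier, at 60.2 and Slc38a2, the system A carrier SNAT2, at 55.9. Their levels overlapped within control livers, at 59.4 ± 2.91 and 59.4 ± 8.22 per kilobase (SD, n = 3).

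Further down the order, Slc6a12, the betaine carrier, stood at 20.6 per kilobase, Slc16a12, a creatine carrier, at 19.0, Slc16a10, the aromatic amino acid carrier TAT1, at 18.6 and Slc38a10 at 17.0. The other tested genes formed a long tail down to Slc38a1, with a mean of 0.139 per kilobase. The plot of levels per kilobase shows this order by liver.

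**Figure D1:**
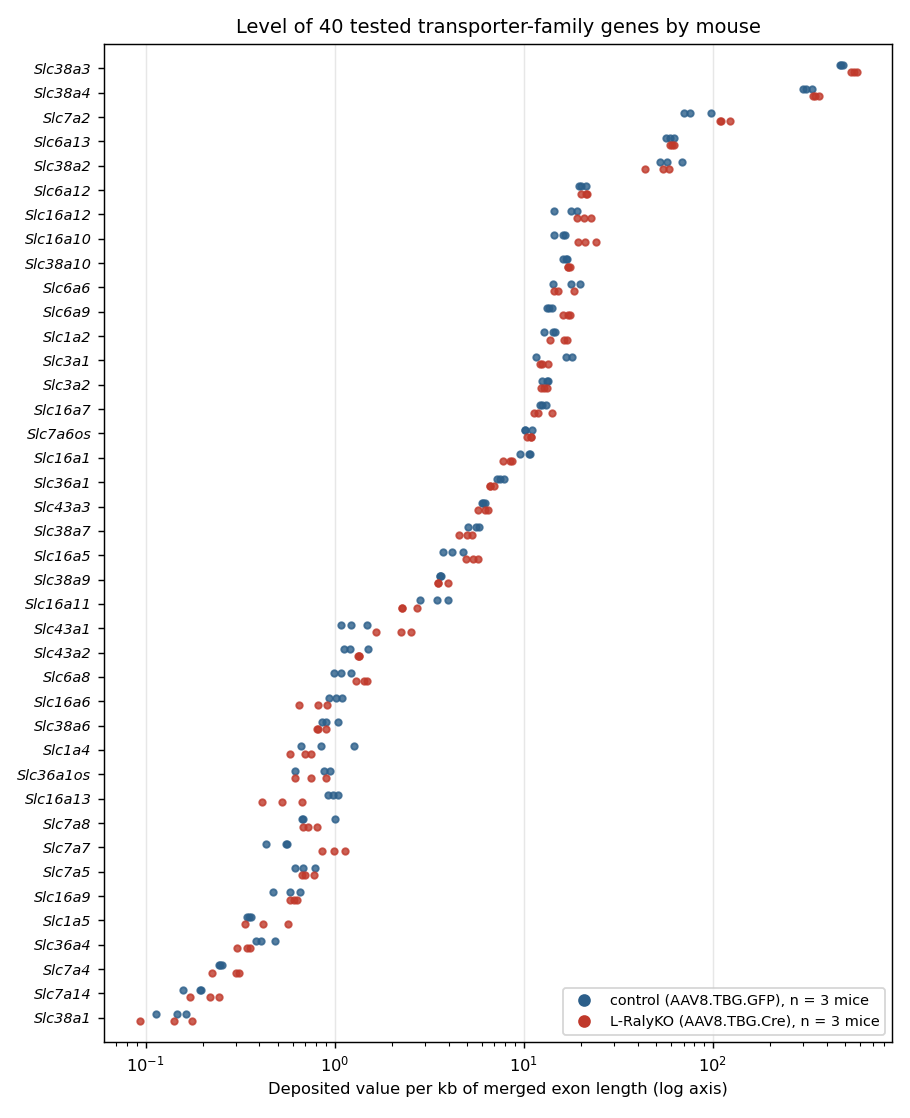
Level of 40 tested transporter genes per kilobase of exon (log axis), with 1 point for each of the 3 control and 3 L-RalyKO livers. Slc38a3 (mean 518) and Slc38a4 (mean 333) stand above all others, and the points of the groups lie close together compared with the distance between the ends of the order.

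The comparison of L-RalyKO with control livers asked which of these carriers changed when hepatocytes lost Raly. At an adjusted p under 0.05 (limma, adjusted over all 11580 genes tested), 7 of the 41 tested genes were called. Over all tested genes the called share was 6.55%, against 17.1% of these 41. Slc6a9, Slc16a10, Slc7a7, Slc43a1 and Slc7a2 rose, where 3.36% of all tested genes rose. Slc16a13 and Slc16a1 fell, where 3.19% of all tested genes fell. Of all calls 389 were higher and 369 lower, and scaling by total count gave 324 higher and 469 lower. Without control mouse 1, the control furthest from the L-RalyKO livers for Slc7a2, Slc16a10, Slc43a1 and Slc16a1, only Slc6a9 of the 7 stayed called (limma adjusted p = 0.0309, and 0.0597 to 0.123 for the other 6), and Slc3a1 was called in addition. Leaving out L-RalyKO mouse 1 or L-RalyKO mouse 2 instead also left 2 members called, and leaving out control mouse 3 left 7. No called change reached a doubling of the mean, and the ratios of group means ran from 0.550 for Slc16a13 to 1.93 for Slc7a7.

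The fold changes below are on the scale of log2 of the normalised count plus 1, which understates the change of low genes. Their median was 0.03 over the 41 genes and 0.004 over all tested genes, and their median size without sign was 0.149 against 0.0954. There were 23 positive and 18 negative values, of which Slc38a9 and Slc43a3 turn negative when libraries are scaled by total count. In 16 of the 41 genes (39.0%) the groups did not overlap, 10 higher and 6 lower, against 28.1% of all tested genes, of which 14.4% were higher and 13.7% lower. An unadjusted p under 0.05 (limma) was reached by 15 of the 41 genes (36.6%), against 22.7% of all tested genes. With 3 mice a group an exact permutation test of 1 gene cannot go below p = 0.1, so the calls rest on the spread that limma shares across genes.

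**Figure D2:**
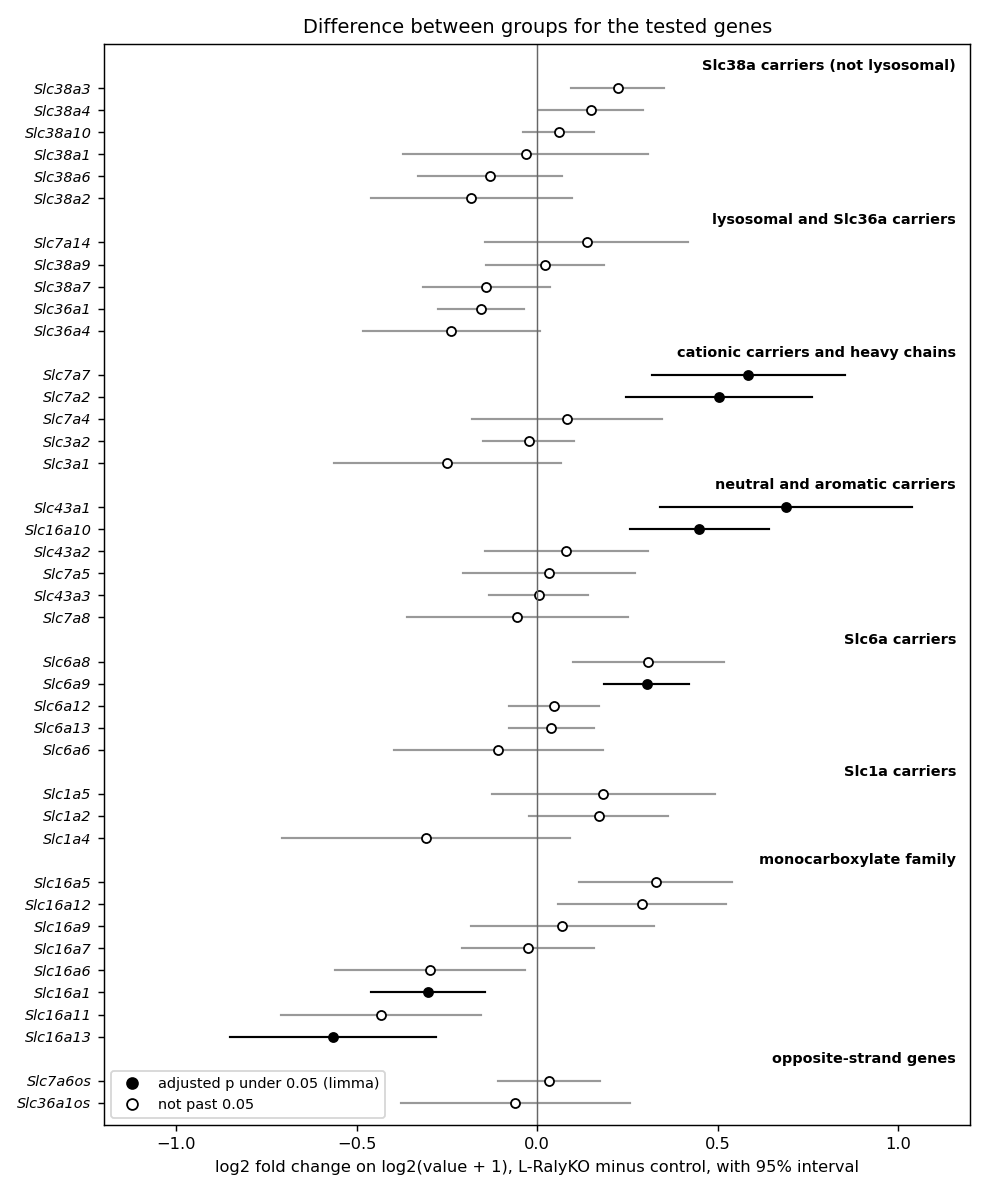
Difference between L-RalyKO and control livers (log2 of the normalised count plus 1) for 40 of the 41 tested genes, grouped by class, with 95% confidence intervals. Filled points mark the 7 called genes: 5 lie above 0 and the 2 below 0 are both in the monocarboxylate family.

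Among the Slc38a carriers outside the lysosome, 6 of 9 genes were tested and 0 were called in the main limma fit, with 2 at an unadjusted p under 0.05. Slc38a3 had normalised counts of 1950, 1885 and 1828 in L-RalyKO and 1592, 1606 and 1652 in control livers. All L-RalyKO livers lay above all controls, but the log2 fold change of 0.22 ± 0.057 (SE) had an adjusted p of 0.0543 by limma. Count tests on the whole reads did call it, with an adjusted p of 0.0456 by edgeR and 0.00176 by DESeq2. It was also called by limma voom on the whole reads (adjusted p = 0.0341) and by limma over genes with a mean of at least 5 (adjusted p = 0.0450). No fit that left out 1 mouse called it (limma adjusted p from 0.0723 to 0.179). Slc38a4 had 1405, 1467 and 1358 in L-RalyKO against 1214, 1251 and 1352 in control livers, with the lowest L-RalyKO liver just above the highest control (log2 fold change 0.15, limma adjusted p = 0.207). Slc38a2, whose transcription is known to respond to amino acid shortage, had 253, 203 and 271 in L-RalyKO and 244, 264 and 317 in control livers, and the groups overlapped (limma adjusted p = 0.420). Slc38a10 had 112, 109.9 and 110.2 in L-RalyKO and 107, 108 and 104 in control livers, with means of 110.8 ± 1.40 and 106.4 ± 2.35 (SD, n = 3) with an adjusted p of 0.468 by limma. Slc38a6 and Slc38a1 overlapped between groups, and Slc38a5, Slc38a8 and Slc38a11 had at most 9 reads in all.

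The lysosomal and proton-coupled group, which exports amino acids from lysosomes or senses them there, had 5 of 7 genes tested and 0 called by limma, edgeR or DESeq2, with 1 at an unadjusted p under 0.05. That gene was Slc36a1, a proton-coupled carrier of small amino acids, with 39.1, 37.4 and 37.2 in L-RalyKO and 44.1, 42.1 and 40.8 in control livers. The groups did not overlap, and the log2 fold change of -0.16 had a limma adjusted p of 0.119. Slc38a9, which signals lysosomal arginine to mTORC1, was level at 11.2 ± 0.829 in L-RalyKO and 11.04 ± 0.0589 in control livers (SD, n = 3), with a 95% interval for the log2 difference of -0.14 to 0.18. Slc38a7, a lysosomal glutamine exporter, and Slc36a4 had negative log2 fold changes of -0.14 and -0.24 that were not called (limma adjusted p = 0.321 and 0.232).

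Of the cationic carriers and heavy chains, 5 of 10 genes were tested and 2 were called, both higher. Slc7a2, at chr8:41947750-42007662 (mm9, plus strand), takes up arginine, lysine and ornithine. It had normalised counts of 1005, 1002 and 1124 in L-RalyKO and 644, 691 and 890 in control livers. All L-RalyKO livers exceeded all controls, the control with 890 lying nearest, and the log2 fold change was 0.50 ± 0.11 (SE, limma adjusted p = 0.0370). Slc7a7, at chr14:54989128-55032856 (minus strand), encodes y+LAT1, the light chain that exports cationic amino acids when joined to Slc3a2. It was low, with 2.56, 1.94 and 2.26 in L-RalyKO and 1.25, 0.982 and 1.27 in control livers (28 to 88 reads a library). The ratio of means was 1.93, and the log2 fold change was 0.58 ± 0.12 (SE, limma adjusted p = 0.0242). It shares 226 bases with Oxa1l on the other strand, which had a log2 fold change of 0.007. Macrophages are known to express Slc7a7, and the summed Kupffer cell markers were 126 to 159 in L-RalyKO and 119 to 177 in control livers. Any part of macrophages in the Slc7a7 difference was not tested.

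The heavy chain Slc3a2 (4F2hc), the partner of Slc7a7, was level at 39.4, 36.6 and 37.8 in L-RalyKO and 36.8, 39.2 and 39.9 in control livers, with a 95% interval for the log2 difference of -0.15 to 0.10. The other heavy chain, Slc3a1 (rBAT), had 30.9, 28.9 and 28.3 in L-RalyKO and 26.9, 41.4 and 38.6 in control livers, which overlapped (limma adjusted p = 0.333). The light chains it is known to join, Slc7a9 and Slc7a13, had 2 reads and 1 read in all 6 livers together. Slc7a1, the widely expressed cationic carrier CAT1, stayed just below the limit for testing with a mean of 0.940, and Slc7a6, the other y+L light chain, had a mean of 0.378. Slc7a4 was tested and was not called (limma adjusted p = 0.731).

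Among the neutral and aromatic amino acid carriers, 6 of 9 genes were tested and 2 were called, again both higher. Slc16a10, at chr10:39753341-39862062 (minus strand), lets tyrosine, tryptophan and phenylalanine leave or enter cells by facilitated diffusion. It had 148, 129 and 119 in L-RalyKO and 88.6, 98.8 and 102 in control livers. The groups did not overlap, and the log2 fold change was 0.45 ± 0.085 (SE, limma adjusted p = 0.0185). Slc43a1, at chr2:84679007-84703751 (plus strand), encodes LAT3, a carrier of branched-chain amino acids and phenylalanine. It had 9.45, 14.5 and 12.9 in L-RalyKO and 6.17, 6.94 and 8.43 in control livers. This gave a log2 fold change of 0.69 ± 0.15 (SE, limma adjusted p = 0.0354), the largest among the called members on this scale, with the L-RalyKO liver at 9.45 close to the highest control.

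The related carriers of this class did not pass the test. Slc43a3, which carries purine nucleobases and lies 72984 bases from Slc43a1 on the same strand, had a log2 fold change of 0.003 (limma adjusted p = 0.980). Slc43a2 (LAT4) had means of 13.5 ± 0.109 in L-RalyKO and 12.8 ± 2.0 in control livers (SD, n = 3), and its limma adjusted p was 0.685. The light chains of the large neutral system, Slc7a5 (LAT1) and Slc7a8 (LAT2), were low in liver at means of 0.704 and 0.759 per kilobase and overlapped between groups (limma adjusted p = 0.897 and 0.857).

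Of the 19 Slc6a carriers, 5 were tested and 1 was called. Slc6a9, the glycine carrier GlyT1 at chr4:117507111-117547803 (plus strand), had 82.6, 87.9 and 90.1 in L-RalyKO and 72.5, 68.1 and 70.0 in control livers. The groups were well apart for their spread, and although the log2 fold change was only 0.30 ± 0.052 (SE), its limma adjusted p of 0.0130 was the smallest among the members. The genes that overlap Slc6a9 on the other strand, B4galt2 and Ccdc24, had means of at most 0.175. Slc6a8, the creatine carrier, had 6.75, 7.43 and 7.71 in L-RalyKO and 5.16, 5.65 and 6.33 in control livers, without overlap (log2 fold change 0.31, limma adjusted p = 0.0868). The osmolyte carriers overlapped between groups. Slc6a13 had 177, 182 and 172 in L-RalyKO and 164, 173 and 181 in control livers (log2 fold change 0.04, limma adjusted p = 0.717). Slc6a12 had 66.0, 65.0 and 60.9 in L-RalyKO and 61.0, 65.0 and 59.9 in control livers (log2 fold change 0.05, limma adjusted p = 0.679). Slc6a6, a taurine carrier, had a log2 fold change of -0.11. The intestinal and renal neutral carrier Slc6a19 had 5 reads in all, and the serotonin carrier Slc6a4 had a mean of 0.293 with overlapping groups.

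The 7 Slc1a glutamate and neutral carriers held 3 tested genes, of which limma, edgeR and DESeq2 called 0 and 0 reached an unadjusted p of 0.05. Slc1a2, the glutamate carrier GLT1 of pericentral hepatocytes, had 215, 181 and 223 in L-RalyKO and 169, 188 and 191 in control livers, which overlapped (log2 fold change 0.17, limma adjusted p = 0.274). Slc1a4 and Slc1a5, both neutral amino acid exchangers, had log2 fold changes of -0.31 and 0.18 (limma adjusted p = 0.342 and 0.470). Slc1a1, Slc1a3, Slc1a6 and Slc1a7 were below the limit for testing.

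The monocarboxylate family held 13 genes without Slc16a10, 9 of them tested, and its 2 called genes both fell. Slc16a1, at chr3:104442591-104462385 (plus strand), encodes MCT1, the carrier of lactate, pyruvate and ketone bodies. It had 34.3, 38.6 and 37.6 in L-RalyKO and 48.0, 42.1 and 47.0 in control livers. Every L-RalyKO liver lay under every control, and the log2 fold change was -0.30 ± 0.069 (SE, limma adjusted p = 0.0379). Slc16a13, at chr11:70030291-70034496 (minus strand), is a less studied member, with 1.34, 1.04 and 1.71 in L-RalyKO and 2.32, 2.63 and 2.49 in control livers (36 to 92 reads a library). The ratio of means was 0.550, and the log2 fold change was -0.57 ± 0.13 (SE, limma adjusted p = 0.0346).

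Slc16a11, which ends 371 bases from the end of Slc16a13 on the other strand, had 5.79, 5.77 and 7.0 in L-RalyKO and 8.85, 10.1 and 7.24 in control livers. It was lower without overlap but not called by limma (log2 fold change -0.43, adjusted p = 0.0732). DESeq2 did call it, and the strand setting of the counting is not given in the sources used here. Slc16a6, the hepatic exporter of ketone bodies, had 3.17, 4.0 and 4.45 in L-RalyKO and 4.95, 5.36 and 4.57 in control livers (log2 fold change -0.30, limma adjusted p = 0.170), and it shares 1959 bases with Amz2 on the other strand.

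Not all of the family was lower. Slc16a5 (MCT6) had 19.9, 18.3 and 21.2 in L-RalyKO and 13.8, 15.5 and 17.6 in control livers. It was higher without overlap but not called by limma (log2 fold change 0.33, adjusted p = 0.0744), and DESeq2 did call it (adjusted p = 0.0397). Slc16a12 had 84.6, 77.3 and 92.0 in L-RalyKO and 58.9, 77.6 and 71.6 in control livers, with 1 L-RalyKO liver just under the highest control (log2 fold change 0.29, limma adjusted p = 0.135). Another lactate and pyruvate carrier, Slc16a7 (MCT2), was at 46.3, 54.7 and 43.9 in L-RalyKO and 47.5, 48.7 and 50.9 in control livers, with a 95% interval for the log2 difference of -0.21 to 0.16. Slc16a9, a carnitine carrier, overlapped as well. The plot of the called genes shows their values by liver.

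**Figure D3:**
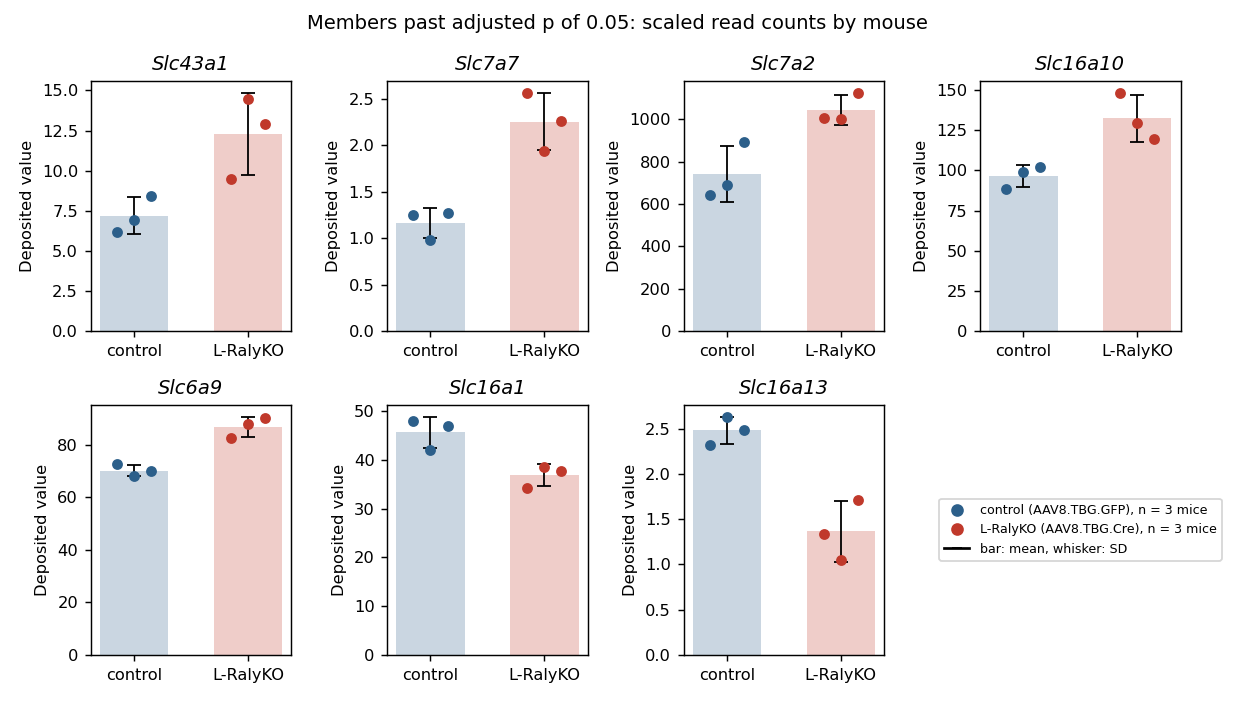
Normalised counts of the 7 called transporter genes in each liver, with bars at the group mean and whiskers for the SD (n = 3 mice a group; each panel has its own axis from 0). In all 7 panels the 3 L-RalyKO points lie on 1 side of the 3 control points.

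Among the 36 genes that were not tested, Slc16a3, the lactate exporter MCT4 of glycolytic cells, was the 1 gene with at least 30 reads whose groups did not overlap. It had 0.204, 0.116 and 0.289 in L-RalyKO and 0.358, 0.596 and 0.622 in control livers, 22 against 52 reads. Named after their values were seen, Slc16a4 had 0 reads in the L-RalyKO livers and 13 in the controls, and Slc38a5 had 1 and 8. Chosen the same way, Slc7a6 (48 against 31 reads) and Slc6a7 (22 against 9) leaned higher with overlapping groups. The share without overlap among all untested genes was not computed, so nothing is read from these low genes. The 13 genes without a read included Slc7a10, Slc36a2, Slc36a3 and Slc6a20a. A count of 0 allows a normalised count of up to 0.0789 to 0.105 in a library, for counting error only. The opposite-strand genes Slc7a6os and Slc36a1os were tested and overlapped between groups, and Slc6a19os had 1 read.

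Levels summed per kilobase were compared for 6 of the classes. The Slc38a class, almost wholly Slc38a3 and Slc38a4, came to 998, 983 and 954 in L-RalyKO and 842, 860 and 909 in control livers. The cationic class, led by Slc7a2, came to 138, 136 and 150 against 95.65, 108 and 129. The neutral and aromatic class, led by Slc16a10, came to 34.98, 32.2 and 30.8 against 24.1, 26.5 and 27.0. In all 3 of these classes the L-RalyKO livers lay above the controls. The lysosomal class lay below them, at 16.4, 16.1 and 15.2 against 17.1, 17.3 and 17.4. The sums of the Slc6a and Slc1a classes overlapped, with means of 116.4 ± 4.21 in L-RalyKO and 111.9 ± 5.43 in control livers for Slc6a (SD, n = 3). These sums follow from the gene values above and are a description without a test.

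**Figure D4:**
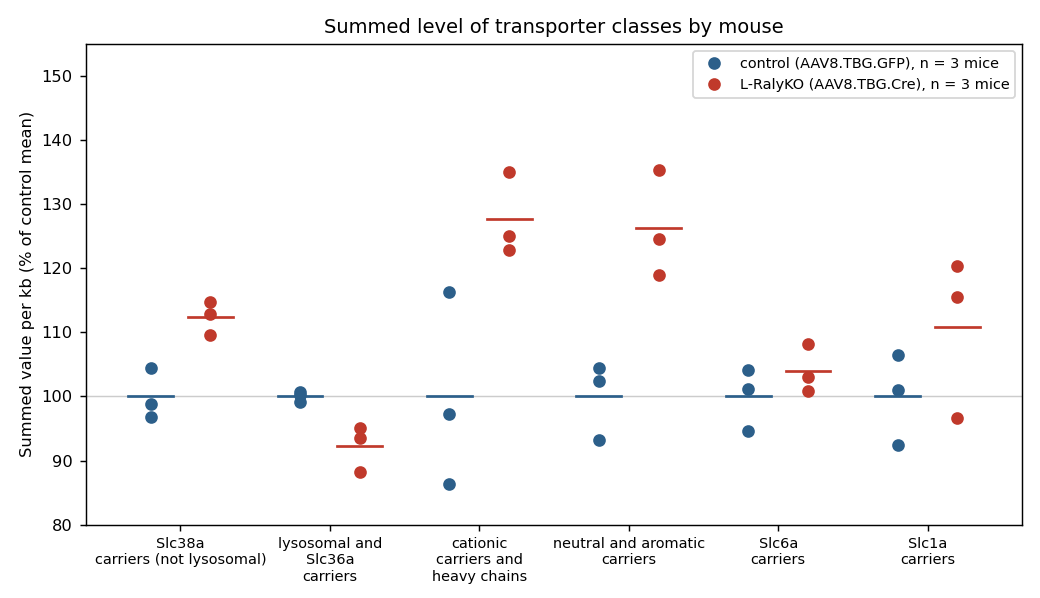
Summed level per kilobase of 6 transporter classes in each liver, as percent of the control mean (the axis starts at 80%), with group means as lines. L-RalyKO livers lie above all controls for the Slc38a, cationic, and neutral and aromatic classes, below them for the lysosomal class, and overlap with them for the Slc6a and Slc1a classes.

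Promoter sequences were set beside the called genes because the study linked RALY to the CCAAT-binding factor NF-Y, and because amino acid carriers are known targets of ATF4. The windows hold the 250 bases before a RefSeq start on GRCm38.p6, read 5′ to 3′ on the strand of the gene, and 5 of the 7 called genes were matched (all but Slc7a2 and Slc16a13). Both strands were searched for CCAAT, which reads as ATTGG where it lies on the other strand, and for TGATGNAA, the core of the C/EBP-ATF element, and capitals mark matches. Slc16a10 (chr10:40142255-40142504, minus strand) holds CCAAT 2 times, Slc43a1 (chr2:84840073-84840322, plus strand) holds it 1 time, Slc7a7 (chr14:54417945-54418194, minus strand) holds the C/EBP-ATF core in this and 1 more of its 5 windows, and Slc16a1 (chr3:104638414-104638663, plus strand), which fell, holds neither. The windows of Slc6a9 hold neither.
Slc16a10: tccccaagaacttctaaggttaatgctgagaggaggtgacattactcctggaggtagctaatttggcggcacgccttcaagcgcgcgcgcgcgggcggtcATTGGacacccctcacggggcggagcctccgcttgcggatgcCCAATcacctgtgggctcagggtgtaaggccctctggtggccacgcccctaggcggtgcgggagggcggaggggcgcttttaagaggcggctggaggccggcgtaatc
Slc43a1: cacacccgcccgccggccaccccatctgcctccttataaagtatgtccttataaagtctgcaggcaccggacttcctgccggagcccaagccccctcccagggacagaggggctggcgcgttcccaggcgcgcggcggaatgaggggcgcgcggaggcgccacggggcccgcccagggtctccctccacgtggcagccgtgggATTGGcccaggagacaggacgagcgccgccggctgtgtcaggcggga
Slc7a7: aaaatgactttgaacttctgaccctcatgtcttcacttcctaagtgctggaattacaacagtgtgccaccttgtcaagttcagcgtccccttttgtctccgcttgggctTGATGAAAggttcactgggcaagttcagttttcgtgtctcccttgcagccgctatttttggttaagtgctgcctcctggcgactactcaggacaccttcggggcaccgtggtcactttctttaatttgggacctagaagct
Slc16a1: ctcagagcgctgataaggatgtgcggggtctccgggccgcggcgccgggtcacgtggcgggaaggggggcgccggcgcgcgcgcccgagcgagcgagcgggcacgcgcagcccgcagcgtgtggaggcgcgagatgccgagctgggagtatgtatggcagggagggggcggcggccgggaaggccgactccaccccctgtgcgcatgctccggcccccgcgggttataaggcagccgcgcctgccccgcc
CCAAT occurred in 33.8% of all 32851 mouse promoter windows and in 26.2% of the 42 windows of tested members, and the C/EBP-ATF core in 3.45% and 4.76%. Counted by gene, CCAAT was found in 37.5% of all genes with a window, in 33.3% of the 27 tested members with one and in 40% of the 5 called genes. The core was found in 3.91% of all genes with a window and in 3.7% of the 27 tested members, where Slc7a7 alone held it. The matches are a description of letters in these windows.

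How firmly the calls stood differed by gene. Slc6a9 passed an adjusted p of 0.05 in all 10 alternatives of test, scaling, filter, trend or pairing and in all 6 fits that left out 1 mouse, where its adjusted p ran from 0.0258 to 0.0466 (limma). Slc16a10 passed in the same 10 but lost its call without L-RalyKO mouse 1, L-RalyKO mouse 2 or control mouse 1 (limma adjusted p = 0.0515, 0.0523 and 0.0630). Slc7a7 kept its call without L-RalyKO mouse 2 (0.0379) or control mouse 3 (0.0378) and lost it without any other mouse (limma adjusted p from 0.0597 to 0.0949). Slc43a1 kept its call without L-RalyKO mouse 1 (0.0193) or control mouse 3 (0.0260) and otherwise had limma adjusted p from 0.0864 to 0.113. The other 3 lost their call when any of 5 of the 6 mice was left out. Slc7a2 was not called by edgeR (adjusted p = 0.0547), and with 1 mouse left out it passed only without control mouse 3, the control with 890 (limma adjusted p = 0.00297, otherwise 0.0809 to 0.105), Slc16a1 only without control mouse 2 (0.0293, otherwise 0.0628 to 0.124) and Slc16a13 only without L-RalyKO mouse 3 (0.0304, otherwise 0.0698 to 0.101). Slc16a1, Slc43a1 and Slc7a2 also lost their call with no filter on low values and with no variance trend. Slc16a13 lost it with no filter, and Slc16a1 and Slc16a13 lost it with a replicate block. The direction of all 7 was kept in every one of these fits. The plot of adjusted p by setting shows these values.

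**Figure D5:**
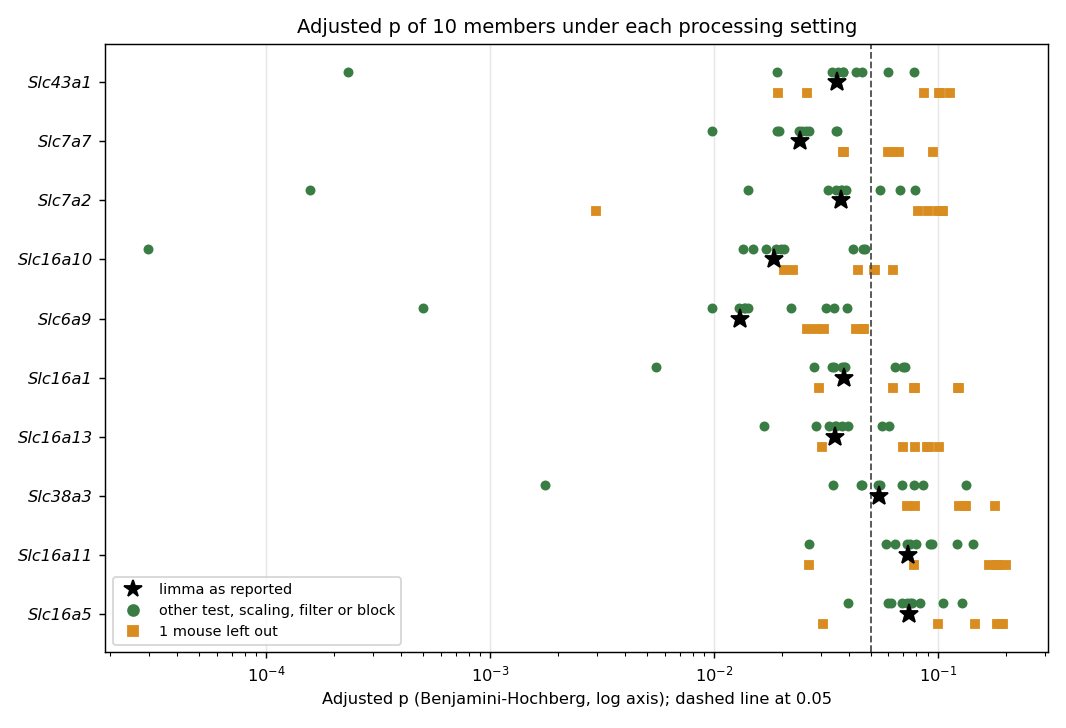
Adjusted p (log axis) of the 7 called genes and of Slc38a3, Slc16a11 and Slc16a5 under each setting, with the dashed line at 0.05. Stars are the values given in the text, circles other tests, scalings, filters or the block, and squares fits without 1 mouse: Slc6a9 stays left of the line throughout, with leave-one-out values of 0.0258 to 0.0466.

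A list of 32 genes was chosen as companions of these carriers (chaperones of monocarboxylate carriers, lactate dehydrogenases, mitochondrial amino acid carriers and other amino acid or peptide carriers). Of these 21 were tested, 2 were called higher and 0 lower, where 6.55% of all tested genes were called, and nothing is read from so small a count. Slc25a13, the mitochondrial aspartate and glutamate carrier citrin, had 337, 329 and 328 in L-RalyKO and 292, 298 and 290 in control livers (log2 fold change 0.18, limma adjusted p = 0.0474). Slc15a2, a peptide carrier, had 4.25, 3.25 and 2.11 in L-RalyKO and 0.149, 1.61 and 0.0541 in control livers (log2 fold change 1.48, limma adjusted p = 0.0375). Slc15a2 passed the filter on low values only through the L-RalyKO livers, where it was high. Only Slc25a13 was called by edgeR and by DESeq2. Bsg, the chaperone that brings Slc16a1 to the membrane, had a log2 fold change of -0.07 (limma adjusted p = 0.362). Of 28 genes of the amino acid response, targets of the transcription factor ATF4, 22 were tested and 1 was called, which is no result about the list either, with 14 positive and 8 negative log2 fold changes. The called gene was Asns, asparagine synthetase, with 2.04, 1.54 and 1.45 in L-RalyKO and 0.328, 0.947 and 0.243 in control livers (log2 fold change 0.85, limma adjusted p = 0.0324), and it too passed the filter only through the L-RalyKO livers. Atf4 itself had 69.7, 71.9 and 67.2 against 55.7, 65.5 and 60.1 and was not called (limma adjusted p = 0.105). Named after its values were seen, Ddit4, an inhibitor of mTORC1 signalling, lay the other way with 6.57, 6.82 and 15.2 against 19.7, 16.5 and 40.2 (log2 fold change -1.32, limma adjusted p = 0.0661). Ddit4 was the only negative gene of this list at an unadjusted p under 0.05 (limma). Ddit3, Chac1, Sesn2 and Eif4ebp1 were positive at that level and were not called either.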

How the data were processed

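Per the study's methods, paired-end reads of stranded libraries were aligned to mm9 and summarised with Cufflinks 2.0.2, and the counting behind this table and its strand setting are not given in the sources used here. The deposited signal values are gene read counts that the authors divided by an effective library size: 100% of values in each library were whole reads within 0.01, and the scaling equals edgeR's TMM. Symbols were matched to GENCODE vM1 for position and merged exon length (75 of 77 by symbol, 2 by synonym). The main test was limma 3.58.1 (R 4.3.3) fitted to log2(value + 1) with its variance trend, over genes whose mean reached 1, with Benjamini-Hochberg adjustment over all genes tested. Alternatives were edgeR 4.0.16, DESeq2 1.42.0 and voom on recovered reads, other scalings, a pseudocount of 0.1, other filters, no trend, a replicate block and leaving out each mouse. The fits were tested on simulated data. Full values were given for called members, the 10 highest per kilobase, those at an unadjusted p under 0.05, untested members of at least 30 reads without overlap, and called genes of both lists. Values of 1 member are not reported here. Other members with values were chosen after these were seen. Members and lists were chosen with earlier results of these data known. The labels number replicates without saying that they are separate mice, and each library was taken here as 1 mouse. The study's figure legend gives a larger n per group for its RNA-seq than the 3 libraries used here. The p-values measure only the spread between these samples. ATAC-seq and ChIP-seq samples were not used here.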

Additional observations from a re-analysis of the deposited data

How the results depend on the processing

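Of 301 values under the alternatives of the 19 members given in full (called, among the highest per kilobase or at an unadjusted p under 0.05), 257 kept direction and side of the threshold, 36 were no longer past it, 8 newly passed it and 0 reversed. Among other members, Slc38a9, Slc43a3, Slc3a2, Slc16a7, Slc16a9, Slc43a2, Slc7a5, Slc7a8, Slc38a1 and Slc36a1os, all uncalled and with overlapping groups, changed sign in at least 1 alternative. Genes called over the whole table fell from 758 to 484 with no filter on low values and ran from 332 to 813 with 1 mouse left out. Members called fell from 7 to 3 with no filter and 4 with no trend (2 to 7 with 1 mouse left out), those called higher from 5 to 3 with no filter and 3 with no trend (1 to 6), and those called lower from 2 to 0 with no filter, 1 with a mean of at least 5 and 1 with no trend (0 to 1). Slc16a1, Slc43a1 and Slc7a2 lost their call with no filter and with no trend, and Slc16a13 with no filter. Companion genes called fell from 2 to 1 by edgeR, DESeq2, voom, total count scaling, upper-quartile scaling, a pseudocount of 0.1 and a mean of at least 5, and to 0 with no filter or no trend (0 to 1 with 1 mouse left out). ATF4 genes called fell from 1 to 0 with no filter or a mean of at least 5 (0 to 1). Slc16a13, Slc7a7, Asns and Slc15a2 were not in the fit with a mean of at least 5, and the cause of the other changes was not tested. Of all calls, 389 of 758 were higher, against 324 of 793 with total count scaling, which moved the median of all genes by -0.03. DESeq2 called 1084 genes and 10 members, adding Slc38a3, Slc16a11 and Slc16a5. Slc38a3 was also added by edgeR, by voom and with a mean of at least 5.

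Replicate numbers were not known to pair mice, and same-numbered libraries correlated at 0.066, -0.024 and 0.020 in their deviations from the group means. With a replicate block, 704 genes and 5 members were called, 5 higher and 0 lower (Slc16a1 and Slc16a13 were lost), with 1 companion gene and 2 ATF4 genes. Members with few reads, such as Slc7a7 and Slc16a13, limit what their ratios can show.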
